A study of Homo sapiens with 8 samples.

Results

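The snoRNA host genes GAS5, SNHG1, SNHG10 and SNHG12 held 112 of the 1843422 peaks deposited for PTBP1 and IGF2BP2 in A172 cells. They are 4 of the 19767 genes named in the 4 immunoprecipitation (IP) peak lists, and their peaks are all those that the authors' annotation gives to these gene names, on either strand. The genes were chosen by name, but with the deposited peak values known: SNHG10 and SNHG12 had stood out among the PTBP1 regions by log2 ratio. The enrichment values below therefore describe them and carry no test.

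A172 is an established human glioma line. The study used eCLIP, in which a protein is crosslinked to RNA in living cells and pulled down with its bound fragments, and the fragments are sequenced beside a size-matched input. All groups shared the same cells, 500 μM 4-thiouridine for 3 h and 2 exposures of 400 mJ/cm2 UV light at 365 nm. The groups were 2 PTBP1 IPs and 2 IGF2BP2 IPs, each with 2 inputs, which enter here only through the deposited ratio. The membrane was excised from 55 to 130 kDa for PTBP1 and from 65 to 140 kDa for IGF2BP2, and each experiment had 2 replicates in a single line. No label says that the repeats were separate cultures, so the spread between them may be technical. No untreated, knockdown or non-specific antibody IP was analysed here.

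A snoRNA host gene is transcribed and spliced to release small nucleolar RNAs from its introns. SNORD genes encode box C/D RNAs, which guide 2′-O-methylation, SNORA genes encode box H/ACA RNAs, which guide pseudouridylation, and SCARNA genes encode relatives of these RNAs that work in Cajal bodies. The spliced host transcripts studied here code for no known conserved protein, and many hosts begin with a pyrimidine tract of the 5′-TOP type, known for tying translation to growth. PTBP1 is a nuclear splicing repressor that binds pyrimidine-rich RNA. IGF2BP2 binds mRNAs through KH domains and is known for roles in their stability and transport.

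All 4 genes lie on the minus strand. GAS5 (chr1:173863901-173869045, 5145 nt) encloses 11 snoRNA genes in the RefSeq table, 10 of the SNORD kind and SNORA103. SNHG1 (chr11:62851978-62855885, 3908 nt) encloses 8 SNORD genes. SNHG10 (chr14:95532912-95534872, 1961 nt) encloses SCARNA13. SNHG12 (chr1:28578538-28582983, 4446 nt) encloses SNORA16A, SNORA44, SNORA61 and SNORD99. The enclosed genes cover 15.6% of the GAS5 extent, 15.8% of SNHG1, 14.0% of SNHG10 and 10.7% of SNHG12. GAS5 overlaps GAS5-AS1 and ZBTB37, and SNHG12 overlaps TRNAU1AP, so a read there could belong to either gene where strand does not decide it. The table gives no strand for the enclosed genes, so "own strand" means the strand of the host.

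The transcript starts are shown because pyrimidine runs are what PTBP1 is known to bind. Each line gives 10 bases before the start and 50 bases from it on the minus strand (RefSeq, GRCh38.p14), with the longest run of C and T in capitals.
GAS5 (chr1:173868996-173869055): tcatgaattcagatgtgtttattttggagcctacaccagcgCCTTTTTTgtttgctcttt
SNHG1 (chr11:62855836-62855895): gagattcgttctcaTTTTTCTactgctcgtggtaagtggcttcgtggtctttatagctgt
SNHG10 (chr14:95534823-95534882): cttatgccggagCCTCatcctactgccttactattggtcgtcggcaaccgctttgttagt
SNHG12 (chr1:28581824-28581883): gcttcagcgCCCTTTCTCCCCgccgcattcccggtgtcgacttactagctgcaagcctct

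The SNHG12 run is 12 bases long and spans the start, and 4.36% of 35116 RefSeq promoters have a run at least as long in the same window. Runs of at least 8 bases, as in GAS5, occur in 21.8% of promoters, and runs of at least 7, as in SNHG1, in 32.6%. The longest SNHG10 run has 4 bases, which 88.5% of promoters reach. The letters TCTT, searched on the transcribed strand in the 50 bases after the start, occur in GAS5 and SNHG1 and in 16.01% of all promoters. No PTBP1 peak lay in the window of any of the 4 genes that reaches 250 bases upstream and 50 downstream of the start shown. A single RefSeq start per gene was used, so this says nothing of other starts a gene may have. In GAS5 an enriched PTBP1 region (chr1:173867960-173867983) lay 1062 to 1085 nt from the start shown, and whether a transcript starts near it was not looked at. IGF2BP2 had 2 and 1 peaks in the SNHG10 window, all on the opposite strand and annotated to the neighbouring gene GLRX5. The RefSeq start of SNHG12 shown here lies inside its extent, and the distances below count from the 5′ end of the extent.

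The PTBP1 lists held 600615 and 538802 peaks and the IGF2BP2 lists 362700 and 341305. IP and input reads could be worked out for 98.4% to 99.6% of peaks with a -log10 p above 0 and below the deposited upper limit. They came from the deposited log2 ratio and p-value. At a -log10 p of 0 stood 151589 and 120008 PTBP1 peaks and 41819 and 36886 IGF2BP2 peaks. At the upper limit stood 2296 and 1759 PTBP1 peaks and 870 and 829 IGF2BP2 peaks. Reads of peaks at either end are lower bounds and do not count as recovered. The median recovered peak rested on 12 and 9 IP reads in the PTBP1 lists and on 4 in both IGF2BP2 lists. Input was 1 read at 28.3% and 30.4% of recovered PTBP1 peaks and at 33.6% and 33.7% of recovered IGF2BP2 peaks. An input of 1 read cannot be told from a floor set for 0. The log2 ratio of IP to input carries a constant for each chromosome, and each list was therefore placed on its own median constant (the common scale). The median constants were -0.30 and -0.08 for PTBP1 and 1.74 and 1.90 for IGF2BP2, so for the same value an IGF2BP2 peak needs a lower ratio of IP to input reads. A peak was called enriched at a log2 ratio on the common scale and a -log10 p of at least 3. Where reads were recovered, p was recomputed from them with the median constant in place of the chromosome's own. Peaks without recovered reads, among them those at the upper limit, kept the deposited p. On that rule 2.91% and 2.82% of all PTBP1 peaks and 9.19% and 9.36% of all IGF2BP2 peaks were enriched. Of the 7 glioma or astrocytic markers, NES, VIM, CD44, EGFR and OLIG2 had peaks in all 4 lists, GFAP in 3 and SOX2 in none. The leukocyte gene PTPRC and the epithelial gene EPCAM also had peaks in all 4 lists, and PTPRC held 3 IGF2BP2 regions enriched in both replicates, so these peaks do not tell the cell type, and a peak gives no RNA level.

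The PTBP1 peaks enriched in both replicates lay on 2 H/ACA RNAs, on SCARNA13 and off the enclosed RNAs in GAS5, and those of IGF2BP2 lay on 3 box C/D RNAs. With the log2 ratio and p as deposited, PTBP1 was also enriched in both replicates on the box C/D RNA SNORD78, and IGF2BP2 on 2 box C/D RNAs, without SNORD74. Of the genes' peaks, 17 of 28 and 12 of 23 were enriched in the PTBP1 lists, and 6 of 35 and 4 of 26 in the IGF2BP2 lists. Since PTBP1 enrichment was in view when the genes were chosen, nothing is read from these shares beside the list-wide ones. Peaks recurred in the other replicate for 24 of 28 and 22 of 23 PTBP1 peaks, and for 13 of 35 and 14 of 26 IGF2BP2 peaks. Peaks of the smallest size, 3 IP reads, made up none of the PTBP1 peaks of these genes, against 11 and 16 of the IGF2BP2 peaks. The shares of all peaks that recurred or had 3 reads were not counted. Over the lists, the median recovered peak had 12 and 9 IP reads for PTBP1 and 4 in both IGF2BP2 lists. No trait of these genes is therefore read from these counts.

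Peaks found in both replicates, joined on each strand from an overlap of 1 nt up, gave 18 PTBP1 regions and 12 IGF2BP2 regions. Enriched in both replicates were 8 of the PTBP1 regions, 4 in GAS5 and 2 each in SNHG10 and SNHG12, and 3 of the IGF2BP2 regions, 1 in GAS5 and 2 in SNHG1. Over the whole lists, 2.3% of PTBP1 regions and 5.94% of IGF2BP2 regions found in both replicates were enriched in both. Such a region was held by 3 of the 4 genes for PTBP1 and by 2 of the 4 for IGF2BP2, where 14.5% and 22% of all genes with a peak held one; nothing is read from this for genes chosen with peak values known. With deposited values the regions enriched in both replicates numbered 10 for PTBP1, with SNORD78 of GAS5 and an opposite-strand stretch of SNHG10 (chr14:95534350-95534378) added, and 2 for IGF2BP2, without SNORD74.

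**Figure D1:**
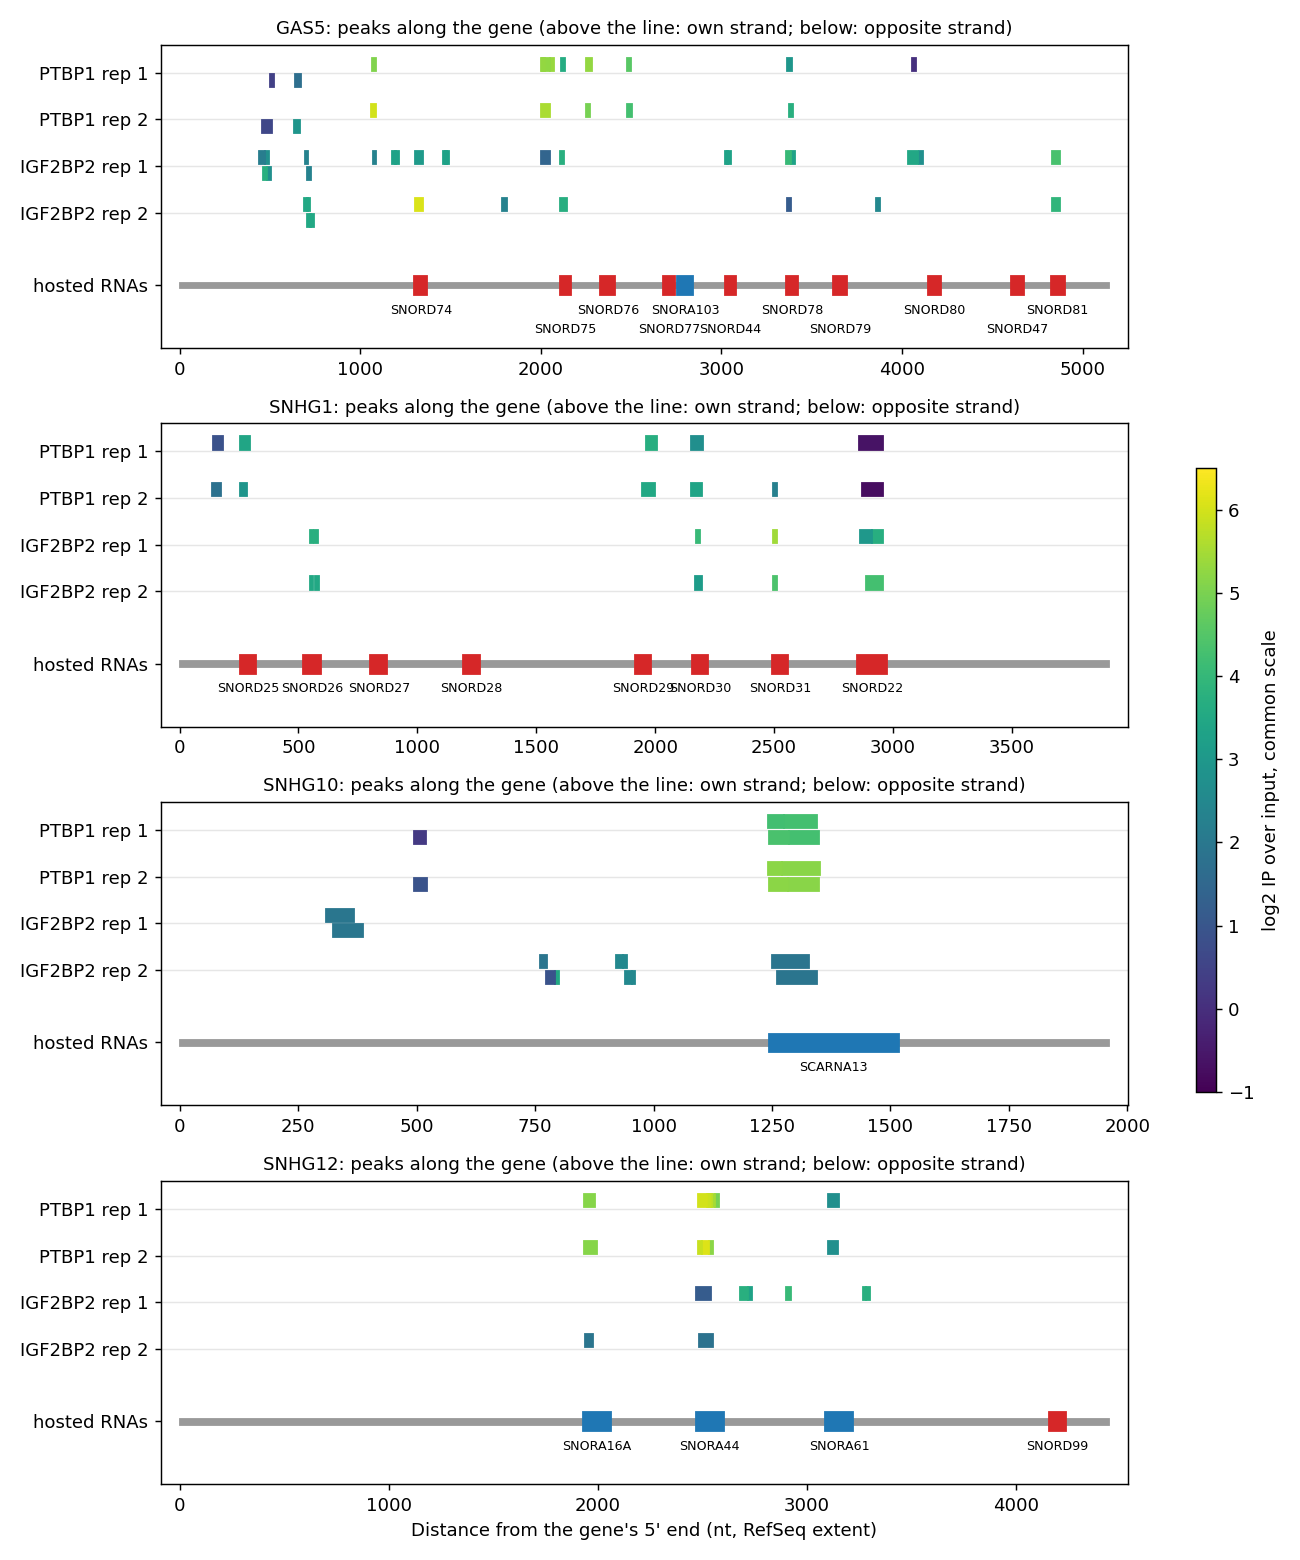
Peaks of each IP library along the 4 genes, by distance in nt from the 5′ end of the RefSeq extent; boxes are peaks (above the line on the gene's own strand, below it on the opposite strand), coloured by log2 IP over input on the common scale, and red and blue boxes at the bottom are enclosed SNORD genes and SNORA or SCARNA genes. PTBP1 values above 4 lie on SNORA44 and SNORA16A of SNHG12, on both strands of SCARNA13 of SNHG10 and off the enclosed RNAs of GAS5. At SNORD22 of SNHG1 PTBP1 is below 0 and IGF2BP2 above 3.

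In SNHG12 the PTBP1 enrichment lay on 2 H/ACA RNAs. On the common scale its SNORA44 had the highest PTBP1 value of the 4 genes in each replicate. As deposited, SNORA44 reached log2 6.58 and 6.71, below the values at SCARNA13 of SNHG10 (7.07 to 8.04), so this rank rests on the scale. At SNORA44 (region chr1:28580441-28580502, annotated intron) the best PTBP1 peaks reached log2 5.99 and 6.11, with at least 627 IP reads to 8 input reads and at least 218 to 3. These peaks lay above 99.96% and 99.97% of their lists. The read numbers are lower bounds, because the p-value stands at the deposited limit of 400 and fixes only the ratio. The same RNA held 5 PTBP1 peaks in replicate 1 and 3 in replicate 2, most of them touching end to end, so they are not separate sites. IGF2BP2 also had a peak there in each replicate, at log2 1.15 and 1.82 from 8 IP to 12 input reads and 17 to 18, above only 27.2% and 38.2% of its lists. Both PTBP1 values at SNORA44 were therefore above both IGF2BP2 values. SNHG12 was chosen with its PTBP1 values known, and the share of RNAs that separate this way was not counted. Nothing is read from this separation.

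SNORA16A, the first H/ACA RNA of SNHG12, had a PTBP1 peak at log2 5.12 and 5.13 (region chr1:28580989-28581050), from 43 IP reads to 1 input read and 37 to 1. IGF2BP2 had a peak there in replicate 2 alone, at log2 1.90 from 3 reads on each side. At SNORA61 (chr1:28579831-28579881), which the authors annotate as exon, PTBP1 reached log2 2.70 and 2.73 from 8 and 7 IP reads to 1 input read, below the limit for enrichment in both replicates, and IGF2BP2 had no peak. SNORD99, the box C/D RNA of the gene, had no peak in any list. All 7 and 5 PTBP1 peaks of SNHG12 were on enclosed RNAs, against 1 of 6 and 2 of 2 IGF2BP2 peaks. The other 5 IGF2BP2 peaks of replicate 1 rested on 3 to 5 IP reads and did not recur in replicate 2.

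SNHG10 peaks were all annotated to exons, and the PTBP1 signal sat on the part of SCARNA13 nearer the host's 5′ end. On the gene's own strand (chr14:95533522-95533630) the best PTBP1 peaks reached log2 4.26 and 5.20, from at least 260 IP reads to 11 input reads and at least 194 to 5. On the opposite strand (chr14:95533524-95533628) the values were 4.34 and 5.21, from at least 501 reads to 20 and at least 389 to 10. The ratios on the 2 strands differed by less than the 2 replicates did. IGF2BP2 had no peak on SCARNA13 in replicate 1 and a pair in replicate 2, at log2 1.90 with 7 IP and 7 input reads on either strand. As deposited, before the chromosome constant was removed, the PTBP1 log2 values at SCARNA13 ran from 7.07 to 8.04.

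Mirrored peaks were a feature of SNHG10. Of its peaks, 4 of 5 in each PTBP1 list and 2 of 2 and 6 of 9 in the IGF2BP2 lists overlapped a peak on the other strand. Over the lists, 11.5% and 11.6% of all PTBP1 peaks and 10.7% and 10.8% of all IGF2BP2 peaks did. An overlap of 1 nt was enough in all these counts. In IGF2BP2 replicate 2, some pairs of 3 IP reads met only at their edges (chr14:95533919-95533933 with 95533933-95533936, and chr14:95534081-95534099 with 95534097-95534112). In 3 of the SNHG10 pairs, all in IGF2BP2 lists, the recovered IP and input reads were identical on both strands. In the PTBP1 pairs the ratios of reads differed between strands. GAS5 had no mirrored PTBP1 peak and 3 and 2 mirrored IGF2BP2 peaks. Its 2 opposite-strand PTBP1 regions were not enriched, at log2 1.697 and 2.92 (chr1:173868374-173868412) and at 0.43 and 0.60 (chr1:173868521-173868591). SNHG1 and SNHG12 had no opposite-strand peak. What the mirrored peaks stand for was not tested. The plot of peak numbers by strand and annotation shows this split.

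**Figure D2:**
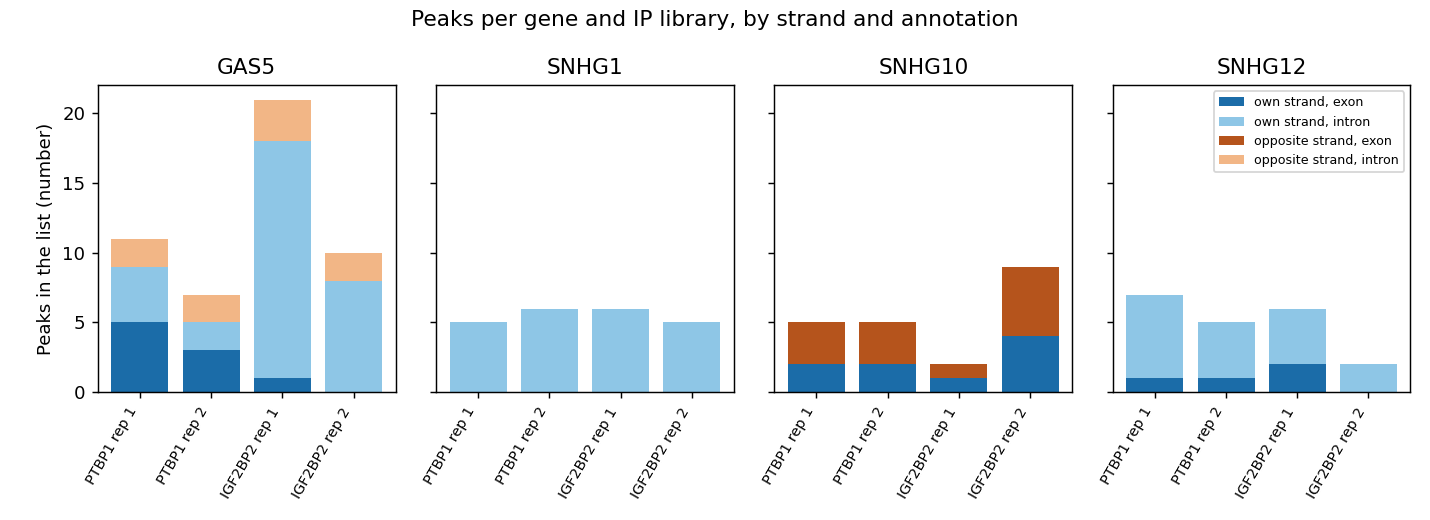
Number of peaks per gene in each IP library (bars stacked by strand and by the authors' exon or intron annotation; both replicates of PTBP1 stand left of those of IGF2BP2). GAS5 exon peaks number 5 and 3 for PTBP1 and 1 and 0 for IGF2BP2, SNHG1 holds only own-strand intron peaks, and SNHG10 is the gene with exon peaks on both strands.

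In GAS5, a non-coding RNA known for growth arrest and glucocorticoid receptor binding, the 4 PTBP1 regions enriched in both replicates lay off the enclosed RNAs, and with deposited values a region on SNORD78 joined them. PTBP1 had 5 and 3 own-strand exon peaks, all enriched, which formed 3 regions found in both replicates. The first in transcript order (chr1:173866991-173867043) reached log2 5.34 and 5.54, from 100 IP to 2 input reads and 98 to 2. Its widest replicate 1 peak stood at 5.24 from 140 to 3 reads. The next region (chr1:173866761-173866796) reached 5.28 and 4.97 from 96 to 2 and 66 to 2 reads. The last (chr1:173866541-173866567) reached 4.56 and 4.25 from 29 to 1 and 20 to 1 reads. These exon peaks lay 46 to 102 nt from the nearest snoRNA gene. IGF2BP2 had a single exon peak in GAS5, in replicate 1, over the first of these regions, at log2 1.42 from 4 IP to 5 input reads.

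The remaining enriched PTBP1 region of GAS5 (chr1:173867960-173867983), annotated as intron, reached log2 5.09 and 5.99 from 84 to 2 and 67 to 1 reads. The authors' overlap length with the intron was 21 nt of the 22 and 24 nt of these peaks, so they extend past its annotated edge. IGF2BP2 had a 3-read peak at the same place in replicate 1 alone, at log2 2.32 from 3 IP to 2 input reads. On the box C/D RNAs of GAS5, PTBP1 peaks were few. SNORD78 (chr1:173865650-173865683) had log2 2.95 and 3.73 from 19 IP to 2 input reads and 14 to 1. It missed the limits on the common scale by the log2 ratio in replicate 1 and by a recomputed -log10 p of 2.99 in replicate 2, and passed them in both replicates as deposited (log2 3.54 and 4.33, -log10 p 4.67 and 4.45). Its call thus rests on the scale. SNORD75 had a PTBP1 peak in replicate 1 alone at 3.60.

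IGF2BP2 peaks of GAS5 were in introns in 20 of 21 and 10 of 10 cases, where 74.6% and 74.3% of all IGF2BP2 peaks were. SNORD74, the first snoRNA of the gene, had no PTBP1 peak and had IGF2BP2 peaks at log2 3.06 and 6.07 (region chr1:173867697-173867739), from 10 IP to 4 input reads and 18 to 1. These replicates lay far apart, above 63.6% and 99.9% of their lists, and as deposited the replicate 1 value of 2.94 was under the limit. At SNORD81, the last snoRNA, IGF2BP2 reached 4.32 and 3.90 from 6 and 4 IP reads to 1 input read, and at SNORD75 it reached 3.74 and 3.71 from 4 to 1 and 7 to 2 reads. Enrichment was met in 1 replicate at each of these 2 RNAs. At SNORD78 the proteins overlapped, with PTBP1 at the values above and IGF2BP2 at log2 4.06 and 1.17. SNORD76, SNORD77, SNORA103, SNORD79, SNORD80 and SNORD47 had no peak in any list.

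SNHG1, first known as the host of the U22 RNA, held 2 of the 3 IGF2BP2 regions enriched in both replicates, at SNORD22 and SNORD31. All its peaks were in introns on its own strand, and 4 of 5 and 5 of 6 PTBP1 peaks and all 6 and 5 IGF2BP2 peaks overlapped a SNORD gene. At SNORD22, the U22 gene, PTBP1 had peaks (chr11:62852929-62853028) at log2 -0.65 and -0.76, from at least 67 IP to 85 input reads and at least 94 to 151. IGF2BP2 reached log2 3.71 and 4.26 over the same RNA (chr11:62852928-62853025), with at least 55 IP to 14 input reads and at least 51 to 10. The PTBP1 peaks were below 0 and had a deposited -log10 p of 0. They lay above 11.4% and 8.63% of all PTBP1 peaks, whereas the highest IGF2BP2 peak of each replicate lay above 82.4% and 94.3% of its list. The second IGF2BP2 peak of replicate 1 on this RNA, at log2 3.01 from 53 IP to 22 input reads, lay above 63.6% of its list.

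At SNORD31, PTBP1 had a peak in replicate 2 alone, at log2 2.25 from 5 IP reads to 1 input read. IGF2BP2 was enriched there in both replicates (chr11:62853372-62853389), at 5.44 and 4.36 from 13 IP to 1 input read and 11 to 2. At SNORD30, PTBP1 had log2 2.70 and 3.38 and IGF2BP2 4.06 and 3.13, so the libraries of the 2 proteins overlapped. SNORD25 and SNORD29 had PTBP1 peaks in both replicates (3.40 and 2.92, 3.70 and 3.51) and none of IGF2BP2. The SNORD29 peak met the limits for enrichment in replicate 1, where less than 50% of the peak lay on the RNA, and SNORD25 met them in neither. SNORD26 had no PTBP1 peak and had IGF2BP2 peaks in both replicates (3.74 and 3.49, from 4 and 3 IP reads to 1). The PTBP1 region of SNHG1 off the enclosed RNAs (chr11:62855703-62855749) stood at 0.89 and 1.80. SNORD27 and SNORD28 had no peak in any list.

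**Figure D3:**
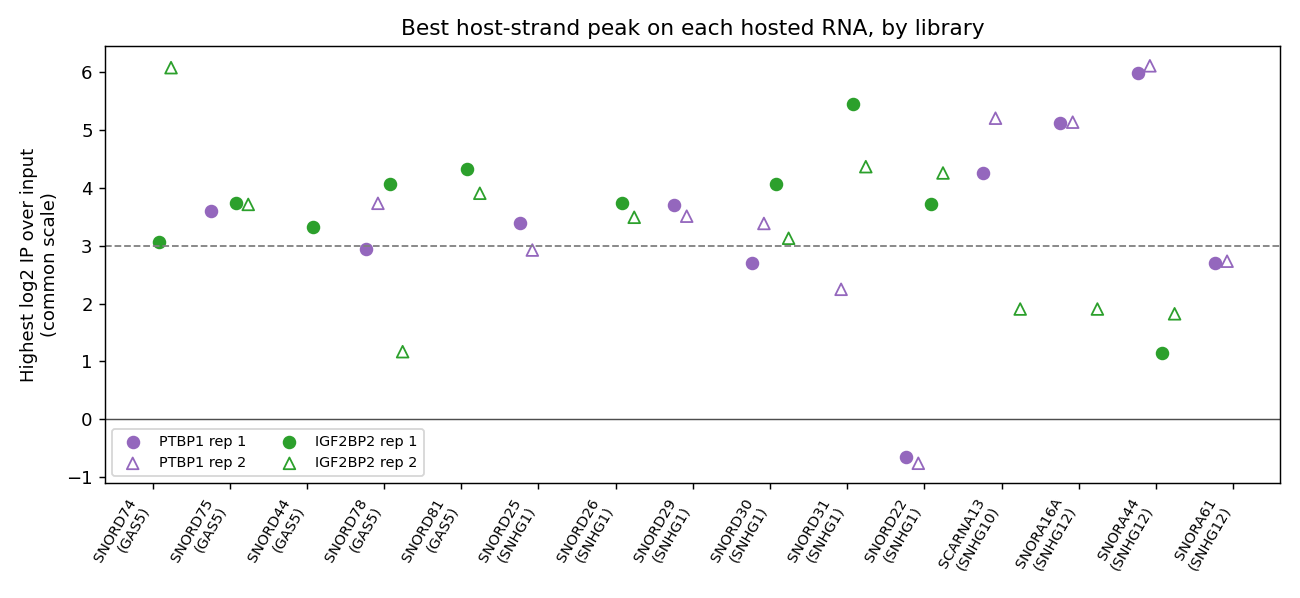
Highest log2 IP over input (common scale) of a host-strand peak on each enclosed RNA with a peak, in order of host and position, for the 2 PTBP1 libraries (purple) and the 2 IGF2BP2 libraries (green); the dashed line is the enrichment limit of 3. PTBP1 points stand at 4.26 to 6.11 for SCARNA13, SNORA16A and SNORA44, and IGF2BP2 points stand at 3.06 to 6.07 for SNORD74, SNORD31 and SNORD22.

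Of the 24 enclosed RNA genes, 9 had a host-strand PTBP1 peak in both replicates and 9 an IGF2BP2 peak in both. Enriched in both replicates were 3 of 24 for PTBP1 (SNORA44, SNORA16A and SCARNA13) and 3 of 24 for IGF2BP2 (SNORD74, SNORD31 and SNORD22). With deposited values these were 4 of 24 for PTBP1, with SNORD78 added, and 2 of 24 for IGF2BP2, without SNORD74. Of the 19 SNORD genes, 0 were enriched for PTBP1 in both replicates on the common scale and 1 as deposited. Of the 4 SNORA genes and SCARNA13, none was enriched for IGF2BP2 in both replicates on either scale. With 2 libraries against 2, an exact two-sided permutation test of a single RNA cannot go below 0.333, and none was run. Own-strand peaks covered enclosed RNAs over 71.3% and 72.9% of their length for PTBP1 and over 49.8% and 82.3% for IGF2BP2.

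Outside these 4 genes, the RNA classes also differed in their counts. Peaks on either strand were counted here. Of 178 SNORA genes elsewhere, 35 (19.7%) were enriched for PTBP1 in both replicates and 1 (0.562%) for IGF2BP2. For the 343 SNORD genes the counts were 5 (1.46%) and 21 (6.12%), and for the 28 SCARNA genes 6 (21.4%) and 1 (3.57%). With deposited values the PTBP1 and IGF2BP2 counts were 41 and 1 for SNORA, 7 and 20 for SNORD and 7 and 2 for SCARNA genes. Counted only among RNAs with a peak of the protein in both replicates, PTBP1 was enriched at 35 of 88 SNORA and 5 of 49 SNORD genes, and IGF2BP2 at 1 of 44 SNORA and 21 of 42 SNORD genes. These are counts without a test, and the limit for enrichment asks for different ratios of reads in the 2 proteins, as given above.

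**Figure D4:**
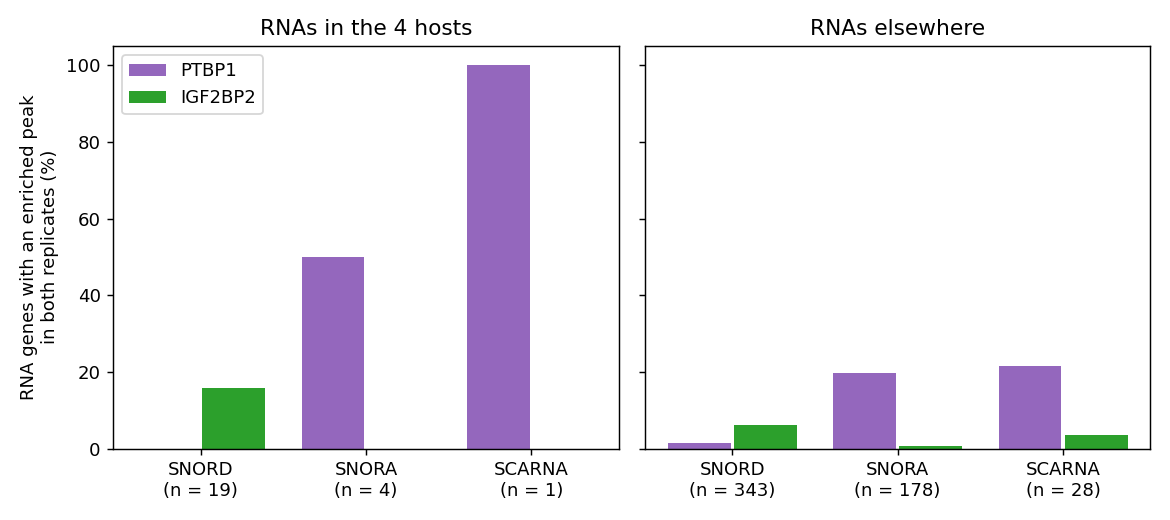
Percentage of SNORD, SNORA and SCARNA genes with an enriched peak in both replicates (purple, PTBP1; green, IGF2BP2) among the RNAs enclosed by the 4 hosts and among those elsewhere, with the number of genes under each pair of bars. Elsewhere PTBP1 stands at 19.7% of SNORA and 1.46% of SNORD genes and IGF2BP2 at 0.562% and 6.12%; the panel of the 4 hosts rests on 19, 4 and 1 genes.

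The number of peaks per gene, set against the size of each list, was compared between the proteins with limma over 15145 genes with at least 10 peaks. Because these are the same peaks by which the genes were chosen, the p-values give no independent support. GAS5 had 11 and 7 PTBP1 peaks and 21 and 10 IGF2BP2 peaks, a log2 density difference (PTBP1 minus IGF2BP2) of -1.39 ± 0.41 (SE), with an adjusted p of 0.0474 by limma with Benjamini-Hochberg adjustment. Over all genes tested, 12.3% were called higher in IGF2BP2 and 25% in either direction. The call was close to the limit and was kept in 5 of 13 alternatives. Without 3-read peaks (4 IP reads or more, an alternative added once the data had been seen), GAS5 had 11 and 7 PTBP1 peaks and 11 and 4 IGF2BP2 peaks, and the difference was -0.61 with an adjusted p of 0.401. Without PTBP1 replicate 1, PTBP1 replicate 2 or IGF2BP2 replicate 1 the adjusted p was 0.0632, 0.162 and 0.0580, and without IGF2BP2 replicate 2 it was 8.18e-05.

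SNHG1, SNHG10 and SNHG12 did not pass. SNHG1 had 5 and 6 PTBP1 peaks and 6 and 5 IGF2BP2 peaks (-0.69, adjusted p = 0.290). SNHG10 had 5 and 5 PTBP1 peaks and 2 and 9 IGF2BP2 peaks (-0.52, adjusted p = 0.617). Without IGF2BP2 replicate 1 it was called at -1.53 (adjusted p = 0.0130), and without IGF2BP2 replicate 2 it turned to 0.49. SNHG12 had 7 and 5 PTBP1 peaks and 6 and 2 IGF2BP2 peaks (-0.02, adjusted p = 0.981). The closest matches in density over the 4 libraries, by Euclidean distance on the log2 scale, were SIRT1 (0.22) and DND1 (0.39) for GAS5, SRRD (0) and ZNF581 (0.21) for SNHG1, PPWD1 (0.16) and PLK4 (0.29) for SNHG10, and RNF139 (0.21) and CENPS-CORT (0.27) for SNHG12.

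Other snoRNA hosts were counted from 2 lists, 25 non-coding and 26 protein-coding genes. Among the non-coding hosts, 8 of 25 held a region enriched in both replicates for PTBP1 (SNHG7, SNHG8, SNHG11, SNHG14, SNHG17, SNHG19, SNHG29 and ZFAS1) and 6 of 25 for IGF2BP2 (SNHG3, SNHG11, SNHG25, SNHG29, SNHG32 and ZFAS1). The coding hosts with such a region numbered 15 of 26 for PTBP1 and 10 of 26 for IGF2BP2, beside the 14.5% and 22% of all genes. NCL, the gene of the nucleolar protein nucleolin, had 6 such PTBP1 regions and no IGF2BP2 region, and NOP56, a core protein of box C/D particles, had 3 and none. RPS3, a ribosomal protein gene and the coding host with the most peaks, had 1 and 1. The shares of hosts and of all genes were not matched for peak number. A gene with more regions found in both replicates has more chances to hold an enriched one, and NCL had 19 for PTBP1 and RPS3 had 18.

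By peak density, 3 of the 18 non-coding hosts that could be tested were higher in PTBP1 and 2 in IGF2BP2, and 13 did not pass (median log2 difference -0.35). Of the 26 coding hosts, 0 were higher in PTBP1 and 4 in IGF2BP2 (median -0.45), while the median over all genes tested was -0.01. Over all genes tested, 12.7% were called higher in PTBP1 and 12.3% higher in IGF2BP2, and nothing is read from the small counts of hosts. SNHG29, the non-coding host with the most peaks, had 128 and 129 PTBP1 peaks and 93 and 87 IGF2BP2 peaks (-0.18, adjusted p = 0.251 by limma). SNHG14 had 80 and 65 PTBP1 peaks and 33 and 20 IGF2BP2 peaks (0.78, adjusted p = 0.0437). SNHG17 had 24 and 22 PTBP1 peaks and 25 and 23 IGF2BP2 peaks (-0.75, adjusted p = 0.0349).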

How the data were processed

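The 4 deposited IP peak lists (hg38, aligned with HISAT2, per the submitters' processing notes) give each peak's strand, gene, annotation and overlap length. They also hold a -log10 p-value up to 400 and, in a column that the file headers call a count, a log2 ratio of IP to input by the authors. That it is a log2 ratio, and that the divisor is the input, was read from the values. Which caller made the peaks, with which annotation and filters, is not given in the sources used here. Repeated lines were removed (55, 36, 3 and 3).

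IP and input reads were recovered from the ratio in lowest terms, with the p-value matched within 1% by an exact binomial or a corrected chi-square test. At a -log10 p of 400 or 0 they are lower bounds. Depth per library is unknown, and intervals were not computed. Read recovery, overlaps and the density fit were checked on simulated data. Peak density was log2((peaks + 0.5)/(list + 1) × 10000), fitted with limma 3.58.1 in R 4.3.3 (trend, genes with at least 10 peaks, threshold 0.05), and the rest in Python 3.11.15 with scipy 1.17.1. Same-numbered replicates were not paired: their deviations correlated at -0.0016 over genes. Members and lists were chosen with earlier results of these data known. Named genes are the 4 hosts, RNAs enclosed by them, other hosts with the most peaks or with an enriched region in both replicates, and the 2 nearest genes in density. RefSeq (GRCh38.p14) gave gene extents and start sequences. No hg38 genome was used, so peak and snoRNA sequences are not printed. Input libraries were not analysed here as files.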

Additional observations from a re-analysis of the deposited data

Results flagged for a closer look

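SNORD22 of SNHG1 was flagged because its log2 IP over input had opposite signs in the 2 proteins. Among 4 enclosed RNAs with a host-strand peak in all 4 libraries, it was the 1 with every PTBP1 library below 0 and every IGF2BP2 library above 0. How often such opposite signs occur at other RNAs or sites in the lists was not counted. A value of 0 means a different ratio of reads in each protein. The list medians on the common scale were 0.95 and 1.01 for PTBP1 and 2.32 and 2.39 for IGF2BP2. The highest peak of each library gave a mean log2 IP over input of -0.70 for PTBP1 and 3.98 for IGF2BP2. The second IGF2BP2 peak of replicate 1, at log2 3.01, does not enter this mean. The difference (PTBP1 minus IGF2BP2) was -4.69 on the common scale. The difference was not tested. The input reads behind the PTBP1 peaks were at least 85 and 151, and behind the IGF2BP2 peaks at least 14 and 10.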

How the results depend on the processing

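The count of 3782 genes called by peak density was 6574 by nucleotides covered and 1499 with exon peaks, and it ran from 2267 to 6388 when a replicate was left out; it stayed within 1.5 times under the other alternatives, among them the replicate block with 4763 genes. The replicate numbers mark no known batch, and the block gave GAS5 an adjusted p of 0.00875 in limma. The GAS5 difference was below 0 in all 13 alternatives (-2.12 to -0.27, adjusted p 8.18e-05 to 0.654). It passed with pseudocount 2, nucleotides covered, introns, the block and without IGF2BP2 replicate 2. With peaks of at least 10 IP reads SNHG1 was called at -1.56 (adjusted p = 0.0207) and SNHG10 turned to 1.15 (adjusted p = 0.0103), in a setting whose median over all genes was 0.64. SNHG10 also turned to 0.15 with peaks of at least 4 IP reads and to 0.49 without IGF2BP2 replicate 2. SNHG12, near 0, turned to 0.026 with TMM scaling, 0.0094 with introns, 0.34 and 0.18 with peaks of at least 10 and 4 IP reads, 0.12 without PTBP1 replicate 2 and 0.62 without IGF2BP2 replicate 1. Over the fits without a replicate, SNHG10 ran from -1.53 to 0.49 and SNHG12 from -0.67 to 0.62; the cause was not tested.

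The 10 enriched IGF2BP2 peaks became 4 with both limits at 4 and 16 with both at 2, and 14 on the deposited scale. The 29 enriched PTBP1 peaks became 28, 36 and 34. The enclosed RNAs enriched in both replicates were 3 for PTBP1 and 3 for IGF2BP2, and 4 and 2 on the deposited scale, an alternative added once the data had been seen; SNORD78 was gained for PTBP1 and SNORD74 lost for IGF2BP2. Regions found in both replicates numbered 20 for PTBP1 and 12 for IGF2BP2 with an overlap of at least 50% of the shorter peak. IGF2BP2 peaks of 3 or 4 reads limit what can be called in these genes.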
